A study of Mus musculus with 9 samples.

Results

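Aldh1l2, Mthfd2, Cth, Slc7a11 and Gdf15 are genes of folate and cysteine metabolism and of the stress response that the transcription factor ATF4 drives. These 5 genes, of 471 in the authors' deposited table for the compound MGH-CP1, were chosen by gene name from results in which they stood higher with MGH-CP1 than with vehicle. Their change in that comparison is therefore given as a description without a test. The cells were EHE17, a tumour line of mouse origin with the cell type label endothelial, and poly(A) RNA was sequenced from 3 biological replicates per group. The groups were cells given MGH-CP1 at 10 µM for 16 h, cells given dinaciclib at 300 nM for 16 h, and cells given DMSO vehicle. All groups carry the same genotype, written TC+/+ Cdkn2a -/- in the labels, and all come from a single line, so that differences between lines were not measured. MGH-CP1 blocks the palmitoylation of TEAD, the DNA-binding partner of YAP and TAZ, and dinaciclib inhibits cyclin-dependent kinases. MGH-CP1 libraries were shallower, with totals of 19934012 to 24310817 counts, against 31852117 to 40020833 for vehicle.

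ATF4 is a transcription factor whose protein is made in larger amounts when the translation factor eIF2 is phosphorylated, as happens when amino acids are short, unfolded protein builds up or mitochondria are damaged. Its known targets include the mitochondrial folate enzymes, which pass carbon units from serine to formate and purines, and the genes that supply cysteine for glutathione, the main thiol that protects cells from oxidation. GDF15 is a secreted cytokine of the TGF-beta superfamily that many forms of stress induce, also through p53, and that acts on the receptor GFRAL in the hindbrain.

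The promoters are shown because the 5 genes stood higher together. The RefSeq promoter table (GRCm38.p6) matched 3 of the 5 genes, Slc7a11, Mthfd2 and Gdf15, and the 250 bases before the start of each are printed, all on the minus strand, 5′ to 3′. The Mthfd2 start in RefSeq lies inside the GENCODE span of the gene given below. Capitals mark matches to the C/EBP-ATF response element, searched as TGATGNAA on both strands.

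Slc7a11, chr3:50443614-50443863:
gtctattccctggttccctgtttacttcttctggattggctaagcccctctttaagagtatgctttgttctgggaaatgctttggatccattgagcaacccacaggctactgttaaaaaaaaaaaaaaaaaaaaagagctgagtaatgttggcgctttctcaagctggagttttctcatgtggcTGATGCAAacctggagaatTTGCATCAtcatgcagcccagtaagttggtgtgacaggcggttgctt
Mthfd2, chr6:83317605-83317854:
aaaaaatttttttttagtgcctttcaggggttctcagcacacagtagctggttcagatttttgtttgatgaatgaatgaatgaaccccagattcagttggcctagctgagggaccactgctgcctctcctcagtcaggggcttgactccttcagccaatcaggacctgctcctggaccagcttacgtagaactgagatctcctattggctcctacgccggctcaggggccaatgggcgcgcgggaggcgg
Gdf15, chr8:70632457-70632706:
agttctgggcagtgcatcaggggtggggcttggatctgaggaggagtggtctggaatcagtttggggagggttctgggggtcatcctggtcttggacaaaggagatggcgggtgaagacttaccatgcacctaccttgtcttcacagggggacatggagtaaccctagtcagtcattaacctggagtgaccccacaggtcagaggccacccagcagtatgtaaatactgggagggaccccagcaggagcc

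The Slc7a11 window held 2 matches to TGATGNAA in opposite orientations, the first from 66 to 59 bases before the start and the second from 47 to 40 bases before it. The Mthfd2 and Gdf15 windows, and a second Gdf15 start in the table, held none. Of 32841 windows of this length in the table, 3.45% held at least 1 match and 0.0396% at least 2. The NRF2 element TGACNNNGC, the cAMP element TGACGTCA and the TATA box TATAAA, searched on both strands, had no match in the windows of the 3 genes and occurred in 10.2%, 1.55% and 12.4% of all windows. These letters are a description of the windows, and no match says nothing about sites elsewhere in the genes.

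Both mitochondrial folate genes stood higher with MGH-CP1. Levels below are normalised read counts, the authors' counts divided by 1 size factor per library, so each is a level relative to the whole library. In these bulk samples fewer cells of a type and less RNA per cell cannot be told apart. Mthfd2, which encodes a mitochondrial methylenetetrahydrofolate dehydrogenase and cyclohydrolase, had 1061, 1403 and 1266 in MGH-CP1 cells, against 438, 521 and 657 in vehicle cells. All MGH-CP1 libraries lay above all vehicle libraries, and the lowest of them was 1.62 times the highest vehicle library. The means were 1243 ± 172 in MGH-CP1 cells and 539 ± 110.2 in vehicle cells (SD, n = 3 each, as below), a 2.31-fold difference and a fitted log2 change of 1.2 with SE 0.179. Mthfd2 (ENSMUSG00000005667) lies on chromosome 6 from 83305691 to 83325908 (GRCm38), and its principal transcript has 8 exons and encodes 350 amino acids.

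Aldh1l2 encodes the mitochondrial 10-formyltetrahydrofolate dehydrogenase, which releases the carbon unit as carbon dioxide and yields NADPH. It had 242, 244 and 201 normalised counts in MGH-CP1 cells, against 73.2, 97.7 and 103 in vehicle cells. The groups did not overlap, and the gap between them was wider than for Mthfd2, with the lowest MGH-CP1 library at 1.96 times the highest vehicle library. It averaged 229 ± 24.5 in MGH-CP1 cells and 91.2 ± 15.7 in vehicle cells, a 2.51-fold difference and a log2 change of 1.32 with SE 0.177. Aldh1l2 (ENSMUSG00000020256, chromosome 10, 83487450 to 83534140) shares 1056 exonic bases with D10Wsu102e on the other strand. The libraries carry no strand mark, so reads from that stretch cannot be assigned to either gene.

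Both genes of cysteine supply stood higher as well, at very different depths. Slc7a11 encodes the light chain xCT of the cystine and glutamate exchanger, which brings cystine into the cell. It had 786, 1233 and 683 normalised counts in MGH-CP1 cells, against 283, 333 and 403 in vehicle cells. The groups did not overlap, but MGH-CP1 replicate 2 stood well above the other MGH-CP1 libraries. It averaged 901 ± 292 in MGH-CP1 cells and 339.7 ± 60.04 in vehicle cells, a 2.65-fold difference and a log2 change of 1.40 with SE 0.226. The annotated gene (ENSMUSG00000027737, chromosome 3, 49892526 to 50443614) spans 551089 bases. Some of its annotated transcripts hold a stretch like alpha-tubulin: 11 other genes matched it over at least 150 bases at 95% identity or more, the longest match being 375 bases at 96% identity to the pseudogene Gm3756. Gm3756 was listed in the same table at 182 ± 12.4 in MGH-CP1 cells and 708 ± 111 in vehicle cells, the opposite direction to Slc7a11.

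Cth encodes cystathionine gamma-lyase, which cleaves cystathionine to release cysteine, the last step from methionine to cysteine. It was the least abundant of the 5 genes, with raw counts of 21, 29 and 26 under MGH-CP1 and of 16, 19 and 22 under vehicle. After normalisation these were 24.3, 41.0 and 30.9 in MGH-CP1 cells, against 14.1, 15.6 and 15.4 in vehicle cells. The normalised ranges did not overlap, while the raw counts did, since the vehicle libraries were deeper. It averaged 32.1 ± 8.38 in MGH-CP1 cells and 15.0 ± 0.797 in vehicle cells, a 2.13-fold difference and a log2 change of 1.08 with SE 0.314. The exact 95% Poisson interval, which covers counting error only, ran on the normalised scale from 15.06 to 37.2 for MGH-CP1 replicate 1, the lowest of its group, and from 9.39 to 24.4 for vehicle replicate 2, the highest of its group, so these intervals overlapped. That of MGH-CP1 replicate 2, from 27.4 to 58.8, lay above those of all vehicle libraries. The vehicle coefficient of variation of 5.31% was below the 23.1% that counting alone gives at this depth, so the closeness of the 3 vehicle values is no measure of their precision. Cth (ENSMUSG00000028179) lies on chromosome 3 from 157894248 to 157925077.

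Gdf15 had the largest difference of the 5 genes. It had 109, 178 and 151 normalised counts in MGH-CP1 cells, against 32.6, 43.5 and 17.4 in vehicle cells. The lowest MGH-CP1 library was 2.50 times the highest vehicle library, the widest gap among the 5. It averaged 146 ± 34.8 in MGH-CP1 cells and 31.2 ± 13.1 in vehicle cells, a 4.68-fold difference and a log2 change of 2.23 with SE 0.316. Its vehicle values also spread most, with a coefficient of variation of 42.0% against 16.9% from counting alone. Gdf15 (ENSMUSG00000038508, chromosome 8, 70629393 to 70632456) is a short gene of 2 exons whose protein has 303 amino acids.

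**Figure D1:**
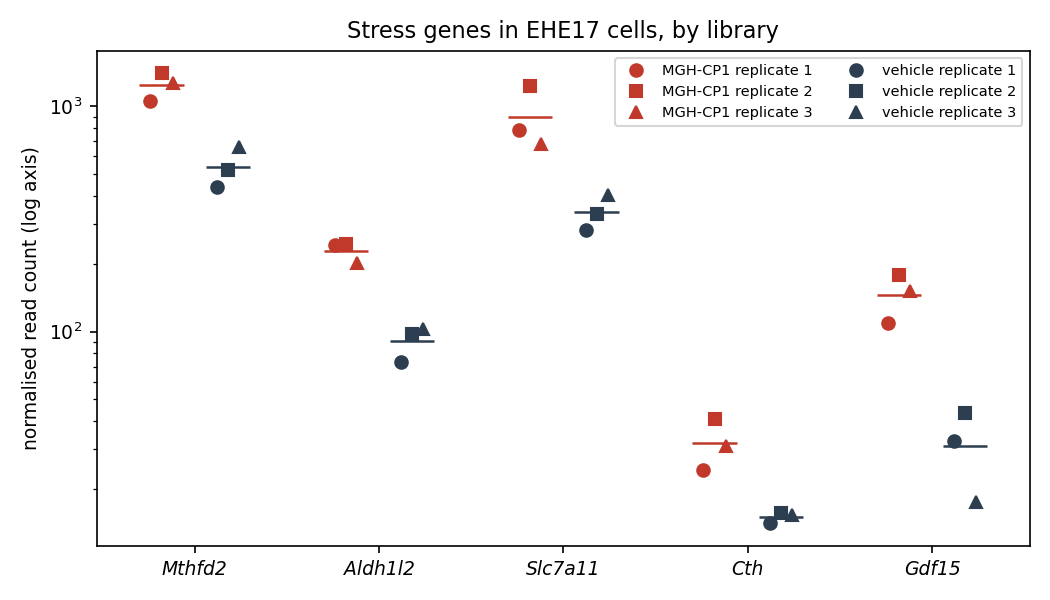
Normalised read counts (log axis) of the 5 genes in each of the 3 MGH-CP1 libraries (red) and 3 vehicle libraries (dark), with a bar at each group mean and a symbol for each replicate number. The groups are separate for all 5 genes, and MGH-CP1 replicate 2 is the highest MGH-CP1 library for each.

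For 5 of 5 genes the lowest MGH-CP1 library lay above the highest vehicle library. Of the 355 genes of the table with enough counts to test, 172 (48.5%) met this, and 175 stood higher at all. Counting both directions, the groups did not overlap for 350 of the 355. Since the 5 genes were picked for standing higher, their count of 5 of 5 adds nothing to their values. Their median log2 change was 1.32, beside 1.48 for the 175 tested genes that stood higher. By the fold change in the authors' deposited table, Gdf15 ranked 24 among the 102 protein-coding genes that were higher, Slc7a11 52, Aldh1l2 59, Mthfd2 73 and Cth 86. That table holds only genes past the authors' limits, its smallest absolute log2 change being 1.001 and its largest adjusted p 0.04998. Of the 5, Cth lay nearest to both limits, with a log2 change of 1.08 and an adjusted p of 0.0458 in the authors' deposited table. Genes outside the limits were not analysed here.

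The replicates of the 5 genes moved unevenly. MGH-CP1 replicate 2 was the highest MGH-CP1 library for 5 of 5 genes, beside 84 of the 175 tested genes that stood higher (48.0%). The excess over the lowest MGH-CP1 library was 1.22-fold for Aldh1l2, 1.32-fold for Mthfd2, 1.63-fold for Gdf15, 1.68-fold for Cth and 1.80-fold for Slc7a11. Among vehicle libraries, replicate 3 was highest for Aldh1l2, Mthfd2 and Slc7a11, while for Gdf15 it was the lowest, at 17.4 against 43.5 in replicate 2. MGH-CP1 replicate 2 was also the shallowest of the 6 libraries and the one in which the listed genes took the largest share of all counts, 1.95% against 1.05% and 1.56% in the other MGH-CP1 libraries; the part of this in the values above was not tested.

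**Figure D2:**
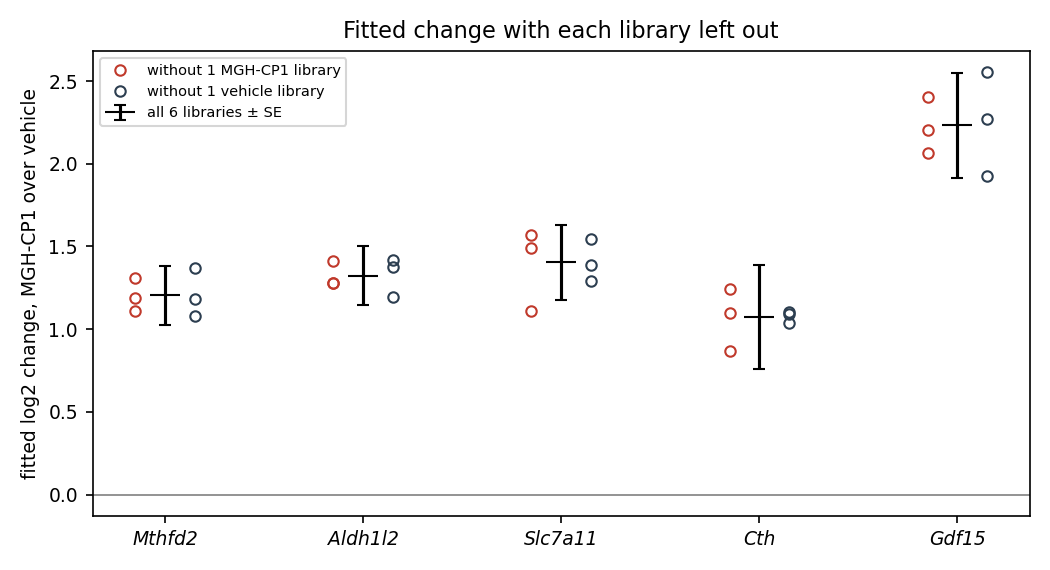
Fitted log2 change of each gene, MGH-CP1 over vehicle, from all 6 libraries (bar, with SE) and with each library left out in turn (circles, red for an MGH-CP1 library left out and dark for a vehicle library). All values stay above 0, from 0.87 for Cth without MGH-CP1 replicate 2 to 2.56 for Gdf15 without vehicle replicate 2. The genes were chosen for standing higher in these libraries.

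Per length, Mthfd2 was by far the most abundant of the 5 transcripts in both groups. Its FPKM, the authors' value per length of gene and size of library, was 12.7 ± 1.75 in MGH-CP1 cells and 5.52 ± 1.15 in vehicle cells. In MGH-CP1 cells Gdf15 came next at 2.80 ± 0.668 FPKM, then Slc7a11 at 2.30 ± 0.746, Aldh1l2 at 1.08 ± 0.116 and Cth at 0.408 ± 0.107. Gdf15 and Slc7a11 overlapped in that order, with 2.09 to 3.41 and 1.74 to 3.15 FPKM, and the other neighbours did not. In vehicle cells Slc7a11 stood second at 0.871 ± 0.157 FPKM, followed by Gdf15 at 0.601 ± 0.251, Aldh1l2 at 0.434 ± 0.0759 and Cth at 0.192 ± 0.0106. There Gdf15 overlapped both Slc7a11 and Aldh1l2, its libraries running from 0.337 to 0.838 FPKM. The deposited lengths equal the union of all annotated exons, 13922 bases for Slc7a11, where the principal transcript has 9223. Per principal transcript length, Slc7a11 stood at 3.47 ± 1.13 and Gdf15 at 3.36 ± 0.801 in MGH-CP1 cells on the same scale, so that the order of these neighbours turned round; this length was chosen after seeing the data.

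**Figure D3:**
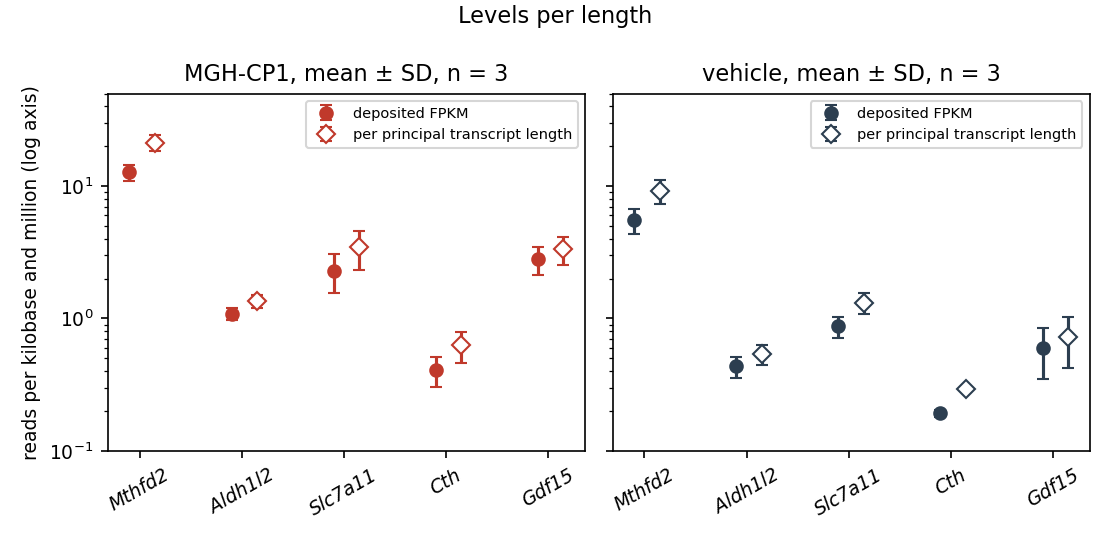
Level per length (log axis) of the 5 genes as mean ± SD over 3 libraries, in MGH-CP1 cells (left) and vehicle cells (right), as deposited FPKM (filled) and per length of the principal transcript (open). Mthfd2 is highest and Cth lowest in both groups on both scales.

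Ratios between the genes within a library do not depend on the library scale. Of the 10 pairs, the FPKM ratio overlapped between the groups for 6 and did not for 4, and those 4 were the pairs with Gdf15. The ratio of Mthfd2 to Gdf15 was 4.19 to 5.18 in MGH-CP1 cells and 6.36 to 20.0 in vehicle cells. The ratio of Slc7a11 to Gdf15 was 0.602 to 0.959 in MGH-CP1 cells and 1.02 to 3.07 in vehicle cells, so that their order turned over on the FPKM scale. Among the metabolic genes, the ratio of Aldh1l2 to Mthfd2 was 0.0737 to 0.106 in MGH-CP1 cells and 0.0726 to 0.0871 in vehicle cells, and that of Mthfd2 to Slc7a11 was 4.54 to 7.39 in MGH-CP1 cells and 6.18 to 6.51 in vehicle cells. The ratios restate that the fold of Gdf15 was larger than those of the other 4 genes, in the libraries that chose them, and other gene pairs of the table were not compared.

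By distance between profiles of log2 normalised count over the 6 libraries, each set to its own vehicle mean, the closest of 210 other tested genes with a regular symbol were as follows. Nearest to Aldh1l2 were Vegfa, the vascular growth factor gene, at 321 ± 24.3 in MGH-CP1 cells and 138 ± 28.2 in vehicle cells (distance 0.296), and the neuronal RNA-binding gene Elavl4 (0.347). Nearest to Mthfd2 were Spp1, which encodes osteopontin, at 633 ± 49.1 in MGH-CP1 cells and 278 ± 29.6 in vehicle cells (0.347), and the fatty acid receptor gene Cd36 (0.367). The neuron navigator gene Nav2 (0.213) and the adenylosuccinate synthase gene Adssl1 (0.339) were nearest to Cth, and the spectrin gene Sptbn5 (0.427) and the atypical cadherin gene Fat3 (0.442) to Slc7a11. Gdf15 had no neighbour as close, Malat1 coming first at 1.10 and the pseudogene Rpl34-ps1 second at 1.17. Among the 5 genes, Aldh1l2 and Mthfd2 were closest to each other (0.471), while Gdf15 was at 2.01 to 2.34 from the other genes. The profiles were not scaled, so the distance includes the size of the change with MGH-CP1. Genes with a similar log2 change therefore come out near each other. It was 1.32 for Aldh1l2, 1.22 for Vegfa and 1.28 for Elavl4, and 2.23 for Gdf15 and 2.30 for Malat1. The distance of Gdf15 from the other genes in part restates its larger change. Whether near genes are regulated together was not tested.

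The other genes of these pathways were read from lists. Every tested gene in the MGH-CP1 table passed the quasi-likelihood test of edgeR at a Benjamini-Hochberg adjusted p under 0.05 (100% of 355, 49.3% higher and 50.7% lower). The authors had picked the table on these libraries, so a list's count says only which members the table holds. The adjusted p of a single list gene, here and below, likewise restates that choice and is no independent evidence. Of 30 genes of the carbon-unit and serine list 3 were in the table, and the gene beside Mthfd2 and Aldh1l2 was Amt, the aminomethyltransferase of the mitochondrial glycine cleavage system. Amt had 52.1, 32.5 and 36.8 normalised counts in MGH-CP1 cells, against 10.6, 26.3 and 14.7 in vehicle cells. The groups did not overlap, as for 350 of the 355 tested genes counting both directions. Amt rose by a log2 change of 1.24 (SE 0.372, edgeR adjusted p 0.00756). Of 28 cysteine and glutathione genes 2 were in the table, Cth and Slc7a11.

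Of 56 ATF4 and CHOP targets 6 were in the table, the 5 genes described above and Ddit4, which went the other way. Ddit4, which encodes an inhibitor of mTORC1 that several stresses induce, had 436, 482 and 334 normalised counts in MGH-CP1 cells, against 960, 949 and 932 in vehicle cells. Every MGH-CP1 library lay below every vehicle library, and the log2 change was -1.18 (SE 0.158, edgeR adjusted p 8.83e-05). The groups did not overlap for 350 of the 355 tested genes, counting both directions. The median log2 change of the 6 was 1.26, a sign fixed by the choice of 5 of them for standing higher. The median over all 355 tested genes, -1.01, lies at the edge of a table that holds no small changes in either direction, so nothing is read from the pair. Other classical targets on the list, among them Atf4 itself, Ddit3, Asns, Trib3 and Chac1, were not in the table, so their levels were not analysed here. No gene of the list of 22 endoplasmic reticulum chaperones and sensors, and none of the 17 stress kinases and regulators, was in the table, and of 16 p53 targets Gdf15 was the single one there.

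Of 17 genes of GDF15 reception, processing and the TGF-beta family, 2 were in the table and both rose. Fst encodes follistatin, which binds activins. It had 22.0, 33.9 and 22.6 normalised counts in MGH-CP1 cells, against 3.53, 5.75 and 7.68 in vehicle cells, a log2 change of 2.15 (SE 0.395; edgeR adjusted p 0.000563). Ltbp2, a latent TGF-beta binding protein gene, had 24.3, 29.7 and 42.8 in MGH-CP1 cells, against 9.70, 16.4 and 13.96 in vehicle cells, and rose by a log2 change of 1.26 (SE 0.348; edgeR adjusted p 0.00512). Both rest on few reads: Fst had 62 counts over the MGH-CP1 libraries and 22 over the vehicle libraries, and Ltbp2 78 over the MGH-CP1 libraries and 51 over the vehicle libraries.

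**Figure D4:**
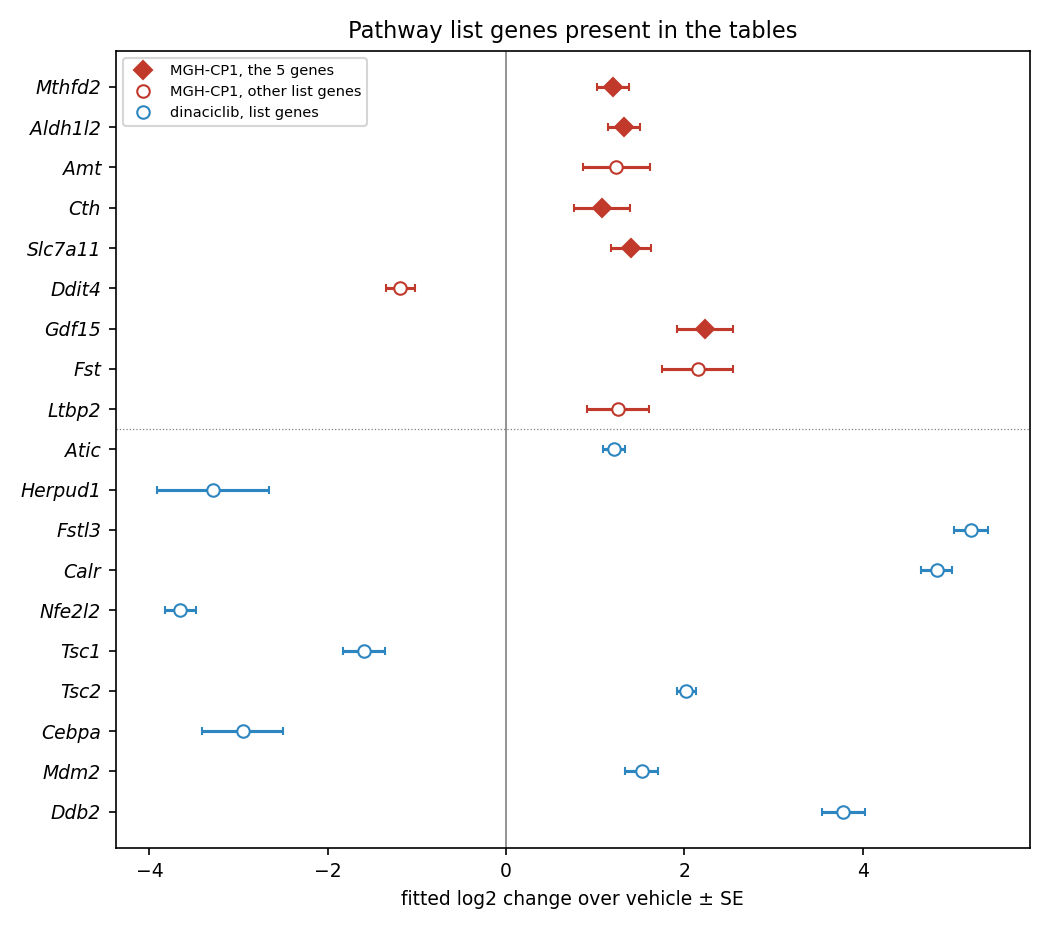
Fitted log2 change over vehicle, with SE, for pathway list genes present in the MGH-CP1 table (red, upper part; filled diamonds are the 5 genes) and in the dinaciclib table (blue, lower part). With MGH-CP1, Ddit4 is the single one of the 9 listed genes below 0; Fas, with 0 counts in dinaciclib libraries, is left out.

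Transcripts of other RNA classes and cell type markers were also among the genes of the MGH-CP1 table. Of 11 transcripts on a list of those mostly without poly(A) tails or retained in the nucleus, 6 were in the table and 6 rose: Malat1, Rn7sk, mt-Rnr1, Hist1h1d, Hist1h1e and Hist1h4k. Of all 355 tested genes of the table, which was picked for change, 49.3% were higher. Their summed counts, for the 6 transcripts, were 0.06058% to 0.07795% of the library under MGH-CP1 and 0.01614% to 0.01996% under vehicle. Most of the sum was Malat1, with 31450 counts under MGH-CP1 and 10163 under vehicle, and mt-Rnr1, with 13727 and 8773. The sum therefore says little about the other transcripts. Without vehicle replicate 1 the log2 change of Rn7sk was 3.63 in place of 2.73, and without vehicle replicate 3 that of Hist1h1d was 2.80 in place of 2.03. Of 9 macrophage markers 2 were in the table, and they went opposite ways. Cd68 was higher at 54.8 ± 17.6 in MGH-CP1 cells and 12.2 ± 5.08 in vehicle cells. Lyz2 was lower at 92.8 ± 25.7 in MGH-CP1 cells and 187 ± 16.9 in vehicle cells. Their summed normalised counts were 138 to 154 in MGH-CP1 cells and 189 to 213 in vehicle cells. The lower sum reflects Lyz2, the more abundant of the 2. Of 13 endothelial markers Vwf was in it, lower at 20.5 ± 9.20 in MGH-CP1 cells and 66.9 ± 9.07 in vehicle cells. None of 9 fibroblast and mural markers was in either table. Of the other endothelial markers, Kdr and Fli1 were in the dinaciclib table, where vehicle cells held 8417 ± 279.9 and 1152 ± 20.996 normalised counts. These are on that table's own scale and cannot be set beside the value of Vwf. Vehicle cells thus held reads of 3 endothelial markers and of 2 macrophage markers. The rest were not analysed here, and cell identity was not tested. The part of these shifts in the values of the 5 genes was not tested.

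None of the 5 genes was in the dinaciclib table, which lists 251 genes with a tumour type annotation, so their levels with dinaciclib were not analysed here. It uses the same vehicle libraries, scaled separately, and its dinaciclib libraries held 2541162 to 3316779 counts. All 248 tested genes were called by the same edgeR test (100%), 25% higher and 75% lower, or 63 higher and 106 lower of 169 calls with TMM factors over the listed genes, which put the median log2 change 1.37 higher. The dinaciclib table too holds only changed genes, its smallest absolute log2 change being 1.004 and its largest adjusted p by the authors 0.0474. Calls on the authors' size factors therefore restate a choice made on the same libraries. The list genes below were called in this table, each at an adjusted p of 0.00335 or less by edgeR. The 4 stress regulators among them went both ways. Nfe2l2, which encodes NRF2, an activator of Slc7a11 and of glutathione genes, was lower at 138 ± 33.9 in dinaciclib cells and 1752 ± 55.1 in vehicle cells. Cebpa, a C/EBP factor gene, had 22.2, 28.5 and 0 in dinaciclib cells, against 142, 118 and 143 in vehicle cells. Its log2 change was -2.95, or -3.68 without dinaciclib replicate 2. Cebpa rests on few reads, with 16 raw counts over the dinaciclib libraries and 1381 over the vehicle libraries. The mTORC1 brake genes Tsc1 and Tsc2 differed in direction, with Tsc1 lower at 102 ± 28.9 in dinaciclib cells and 313 ± 18.8 in vehicle cells, a call it lost with TMM factors (adjusted p 0.495, edgeR), and Tsc2 higher at 2521 ± 293 in dinaciclib cells and 621 ± 17.5 in vehicle cells.

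Of the stress targets in the dinaciclib table, Herpud1, an endoplasmic reticulum stress gene, had 3.70, 2.85 and 81.9 normalised counts in dinaciclib cells, against 281, 282 and 294 in vehicle cells. Replicate 3 stood apart from the other dinaciclib libraries: the log2 change was -3.28, -6.45 without it and -2.66 without replicate 2. Herpud1 had 27 raw counts over the dinaciclib libraries, against 2938 over the vehicle libraries. Most of the 27 fell in replicate 3, so the value without it rests on very few reads. The chaperone gene Calr was higher at 197482 ± 31035 in dinaciclib cells and 6952 ± 112 in vehicle cells, and Atic, of purine synthesis from formyl folate, at 1953 ± 281 in dinaciclib cells and 842 ± 18.8 in vehicle cells. Fstl3, a relative of Fst, was higher too, at 2109 ± 415 in dinaciclib cells and 56.7 ± 3.66 in vehicle cells. Of the p53 targets, Mdm2 was higher at 1410 ± 370.1 in dinaciclib cells and 493 ± 8.48 in vehicle cells, and Ddb2 at 203 ± 42.9 in dinaciclib cells and 14.5 ± 2.84 in vehicle cells. Fas had 0 counts in the 3 dinaciclib libraries and 90 in the 3 vehicle libraries, at least 2.68-fold lower against a floor of 3 counts over the group.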

How the data were processed

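The submitters' processing notes name DESeq2 1.20.0, featureCounts 1.5.0-p3, HISAT2 2.0.5 and fastp without settings, and the genome build is not given in the sources used here. All 471 and 251 gene identifiers are in GENCODE M21 (GRCm38), with equal start and end for 98.5% and 96.4%, so coordinates were taken as GRCm38. Per the file headers, the authors deposited raw read counts, a normalised signal (each count over a size factor of its library), FPKM values, log2 fold changes and p-values. Library totals were recovered from count, FPKM and length. No replicate pair was within sampling noise (chi-square 5.28 to 78.7 times its degrees of freedom).

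Counts were fitted per table with edgeR 4.0.16 (quasi-likelihood, two-sided, authors' size factors, filterByExpr with minimum count 10, Benjamini-Hochberg over the table, threshold 0.05), checked on simulated data. The simulated data gave all genes the same spread beyond counting and left some genes unchanged, unlike either table. They check the procedure and not its error rates here. The SE of an edgeR log2 change is the absolute log2 change over the square root of the quasi-likelihood F statistic. P-values set the group difference against the spread between these libraries of a single line. That spread was estimated from genes already picked for change on the same libraries. The 5 genes and 11 lists (214 genes) were chosen with earlier results of these data known. Named genes are the 5, list genes in either table, and the 2 nearest profiles of each of the 5 (pseudocount 1). Near copies were sought by BLAST among GENCODE transcripts. Alternatives were TMM factors, total counts, DESeq2 1.42.0, no count filter, a replicate block, mean FPKM and leaving out each library.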

Additional observations from a re-analysis of the deposited data

How the results depend on the processing

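The fitted log2 change kept its direction for all 5 genes under TMM factors, total counts, DESeq2, the ratio of mean FPKM, the replicate block and each library left out. The genes were chosen for standing higher in these libraries, so the kept direction adds no evidence. The SE was larger with DESeq2 than with edgeR for each of the 5 genes. With DESeq2 it was 0.222 for Mthfd2, 0.235 for Aldh1l2, 0.274 for Slc7a11, 0.416 for Cth and 0.366 for Gdf15. With each library left out in turn the log2 change ran from 1.08 to 1.37 for Mthfd2, 1.19 to 1.42 for Aldh1l2, 1.11 to 1.57 for Slc7a11, 0.87 to 1.24 for Cth and 1.93 to 2.56 for Gdf15. The same-numbered MGH-CP1 and vehicle libraries did not deviate together (correlations 0.0344, -0.106 and 0.0279 over 355 genes). Pairs with unlike numbers ran from -0.125 to 0.105. These genes were picked for a group change, so the values cannot tell whether same-numbered libraries were prepared together. With a replicate block 355 genes were called for MGH-CP1 and 240 for dinaciclib. TMM factors over the listed genes moved the median log2 change by 0.13 for MGH-CP1 and 1.37 for dinaciclib. The calls numbered 365 to 385 for MGH-CP1 and 240 to 249 for dinaciclib with 1 library left out, from the genes each set of libraries let through the count filter. Depth limits Cth most, with 76 counts in the 3 MGH-CP1 libraries and 57 in the 3 vehicle libraries.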
